A study of Homo sapiens with 6 samples.

Results

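The 54 genes described here are interferon-stimulated and RNA-sensing genes, chosen by name from the 60483 genes of a count table made from HAP1 and HELLS KO cells. Each listed symbol was matched through its Ensembl gene identifier, and all 54 were found. They fall by role into 5 RNA sensors and adaptors, 8 ligands, receptors and signalling factors, 9 IFIT and IFI genes, 13 direct antiviral effectors, 6 enzymes that bind or edit double-stranded RNA, 7 genes of ISG15 and ubiquitin-like conjugation, and 6 genes of antigen presentation. HAP1 (C631) is a near-haploid human line derived from a chronic myelogenous leukemia. HELLS KO is a line of the same background in which 1 base pair was inserted into exon 3 of HELLS, which encodes an SNF2-family chromatin remodeler. Both lines were sampled in normal growth without any drug or viral agent, with 3 biological replicates of each, and replicate 3 of both genotypes carries a batch label that replicates 1 and 2 do not have. The knockout is represented by 1 cell line, so an effect of HELLS loss and a property of that line cannot be told apart. Because RNA was taken from bulk cultures, fewer cells expressing a gene and less RNA per cell cannot be told apart either.

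Double-stranded RNA in the cytosol is bound by the helicases RIG-I and MDA5, which signal through the adaptor MAVS to induce type I interferon. Secreted interferon binds the receptor IFNAR1/IFNAR2, and a complex that holds STAT2 and IRF9 then switches on interferon-stimulated genes through a promoter element called the ISRE. When silenced repeats are transcribed, their RNA can engage this pathway, a state known as viral mimicry. The comparison of the genotypes gene by gene serves as a check for such a state.

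The ISRE is the sequence feature that these genes are best known to share, and a few promoters are shown so that the values below can be read beside it. A promoter was taken as the 300 bases from 250 before to 50 after a transcription start in RefSeq (GRCh38.p14), and 44 of the 54 genes had an entry. USP18, IRF7, TRIM22, OAS2, OASL, IFNAR2, IFITM2, MX2, IFIT2 and DHX58 had none. The letters searched were GAAA, any 2 bases, GAAA, on either strand and with overlaps allowed. They were present at 1 or more starts of 26 of the 44 genes (59.1%) and of 1195 of all 27305 genes with a promoter entry (4.38%). The shorter GAS element, TTC, any 3 bases, GAA, another element of interferon-responsive promoters, was present in 14 of the 44 genes (31.8%) and in 9.38% of all genes. Matches were counted as letters only, and a match is not evidence of binding. The stretches below run 5′ to 3′ on the strand of the gene, and capitals mark the ISRE letters or their reverse complement.

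Shown first are the classical targets ISG15 and IFIT1, the restriction factors IFITM3 and BST2, and the RNA-binding enzymes EIF2AK2 and OAS3, none of which was called.
ISG15, chr1:1013365-1013424, plus strand: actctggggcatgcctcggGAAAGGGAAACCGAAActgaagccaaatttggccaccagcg
IFIT1, chr10:89392510-89392539, plus strand: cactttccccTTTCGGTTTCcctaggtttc
IFITM3, chr11:320861-320920, minus strand: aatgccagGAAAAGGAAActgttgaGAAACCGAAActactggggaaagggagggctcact
BST2, chr19:17405735-17405764, minus strand: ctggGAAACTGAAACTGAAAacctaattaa
EIF2AK2, chr2:37156967-37156996, minus strand: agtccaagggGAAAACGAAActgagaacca
OAS3, chr12:112938452-112938481, plus strand: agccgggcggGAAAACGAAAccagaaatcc

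MX1, the gene with the largest fold change among the tested genes of the list, has 3 annotated starts in the table, and the letters were found just inside the transcript at the first and upstream of the last. IFIH1 and PSMB8, whose libraries did not overlap between the genotypes, are shown beside it.
MX1, first start, chr21:41420559-41420588, plus strand: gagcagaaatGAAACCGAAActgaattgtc
MX1, last start, chr21:41431829-41431888, plus strand: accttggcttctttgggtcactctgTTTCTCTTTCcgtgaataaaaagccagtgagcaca
IFIH1, chr2:162318685-162318744, minus strand: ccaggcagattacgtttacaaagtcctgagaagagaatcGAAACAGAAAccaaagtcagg
PSMB8, chr6:32844032-32844061, minus strand: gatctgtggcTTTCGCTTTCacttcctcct
The same letters stood in promoters of MX1 and of genes that were not called, while OAS2 and IFITM2 had no entry. CG dinucleotides, at which DNA can be methylated (methylation was not analysed here), numbered a median of 16.5 per promoter in the 44 genes, against 16.0 in all genes, with 30 in the richest MX1 promoter, 1 in OAS1 and 0 in IFI44 and IFI44L.

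Of the 54 genes, 45 had enough counts to be tested. The other 9, TLR3, IFNB1, IFI44, IFI44L, MX2, RSAD2, XAF1, CXCL10 and OASL, did not pass the low-count filter. IFNB1, IFI44L, XAF1 and CXCL10 had at most 3 counts in every library and were taken as undetected. A gene was called when edgeR's quasi-likelihood test gave a Benjamini-Hochberg adjusted p under 0.05 over all 17925 genes tested and the fold change was at least 2-fold, that is 1 on the log2 scale. On that rule 1 of the 45 tested genes was called higher in HELLS KO, the GTPase gene MX1, where 1.50% of all tested genes were called higher. MX1 passed the low-count filter only through its HELLS KO libraries, where it is high, and OAS1 and IFITM2 passed only through HAP1, where they are high. None was called lower by edgeR, where 0.720% of all tested genes were. At an unadjusted p under 0.05 there were 6 of the 45 genes in either direction, against 1181 of all 17925 (6.59%). These were MX1, IFITM2, OAS1, OAS2, IFIH1 and PSMB8. With the replicate number as a block there were 11 of the 45, against 2081 of all 17925 (11.6%). Both shares were larger in the list, which was chosen with earlier results of these data known, and the difference was not tested. In the fit with that block, MX1 was again called higher (1 of the 45, against 2.03% of all tested genes). OAS2 and IFITM2 were called lower (2 of the 45, against 1.49%). DESeq2 made the same 3 calls, where it called 1.68% of the 25379 genes with an adjusted p higher and 0.961% lower.

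Most of the tested genes lay close to no difference, as did most genes at large. The median log2 fold change of the 45 was 0.07, against 0.01 for all tested genes. Of the 45, 32 were above 0 and 13 below, where 9328 of all 17925 tested genes were above 0, a smaller share. Fold changes of 36 of the 45 lay within 0.5 of 0 on the log2 scale, against 15514 of all 17925, a larger share. The 95% confidence interval lay wholly within 1 of 0 for 31 of them (68.9%), which compares with 67.8% of all tested genes, and its upper end was below 1 for 37. Libraries of the genotypes did not overlap for 5 of the 45 genes higher in HELLS KO (MX1, IFIH1, IRF1, SP110 and PSMB8). Of all 17925 tested genes, 894 (4.99%) were in that position, a smaller share. They did not overlap either for 3 of the 45 genes lower in HELLS KO (IFITM2, OAS1 and OAS2), against 912 of all 17925 (5.09%). Whether these shares differ was not tested.

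**Figure D1:**
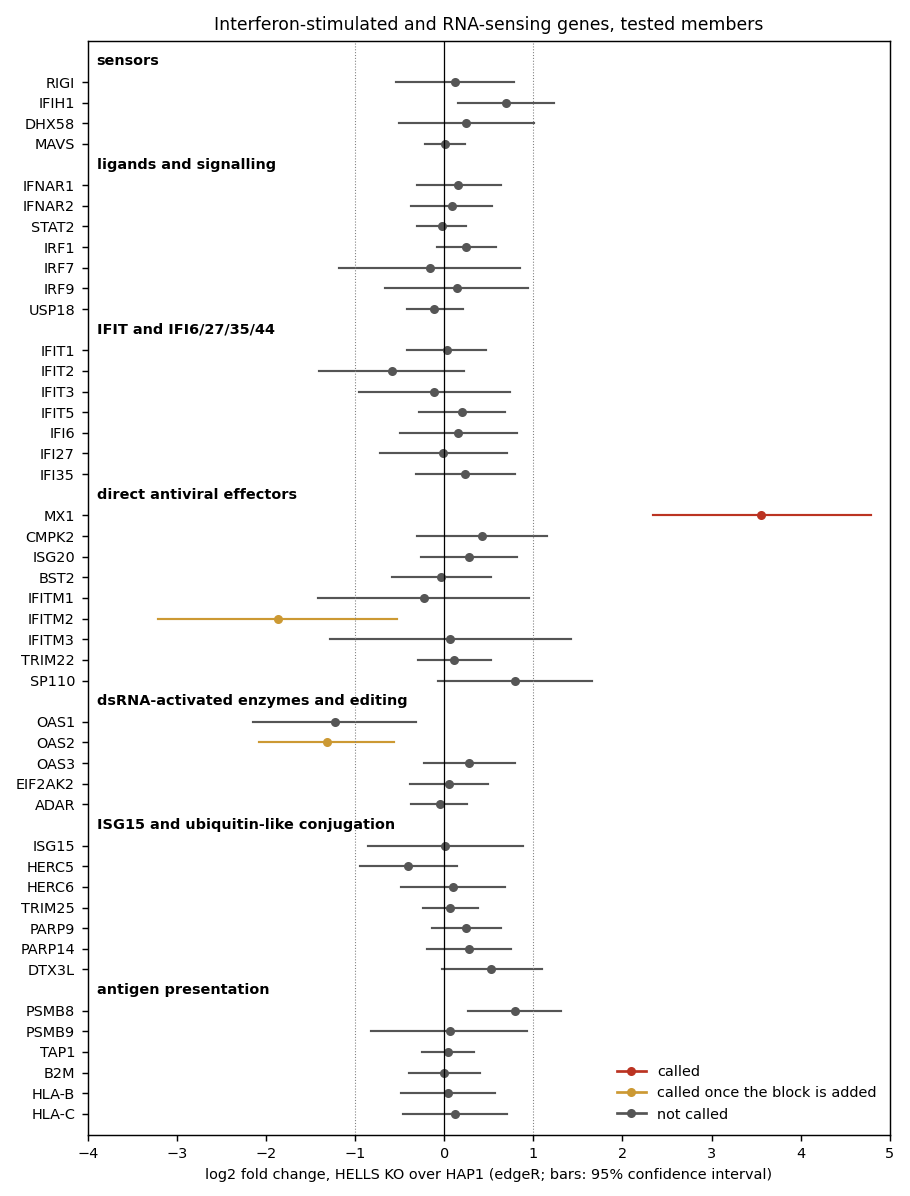
Log2 fold change of each tested gene in HELLS KO over HAP1 with its 95% confidence interval from edgeR, ordered by role, with dotted lines at a 2-fold difference. MX1 stands apart at 3.56, OAS2, IFITM2 and OAS1 lie below -1 and were not called in this fit (OAS2 and IFITM2, in a second colour, were called with the replicate block), and 36 of the 45 points lie within 0.5 of 0.

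Levels per length, as the authors' FPKM, covered a wide range. A value was deposited for 48 of the 54 genes, and 35 had a mean of at least 1 FPKM in both genotypes. BST2, which encodes tetherin, a membrane protein that retains budding virions, had the highest level, with 75.3 FPKM in HAP1 and 73.1 in HELLS KO. ADAR, the RNA-editing enzyme, followed with 41.5 and 39.8 FPKM. MX1 had the lowest mean in HAP1, 0.0293 FPKM, and reached 0.377 FPKM in HELLS KO, which is still below the 0.588 and 0.711 FPKM of ISG20.

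**Figure D2:**
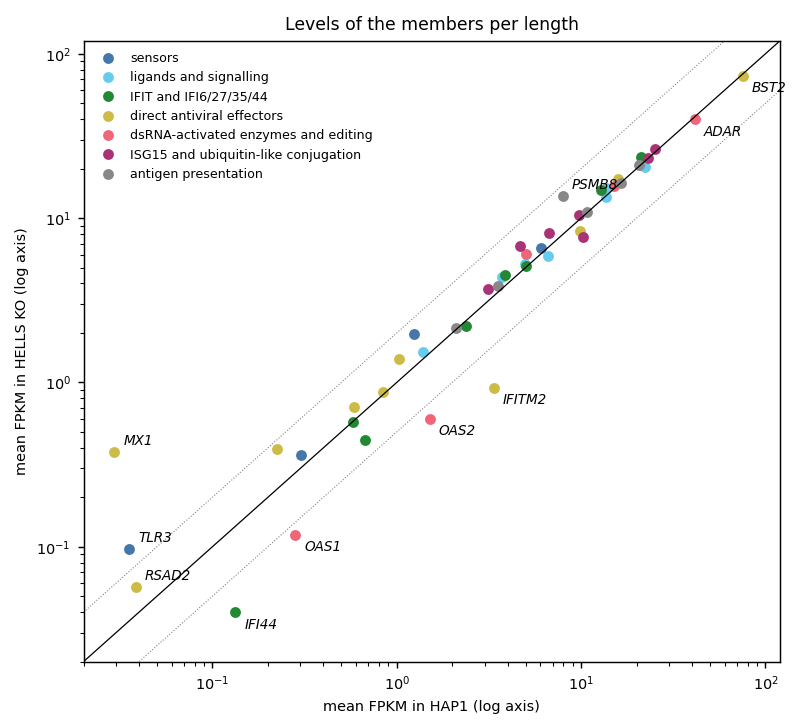
Mean FPKM of the 48 genes that have a value, HAP1 on the x axis and HELLS KO on the y axis, both logarithmic, coloured by role, with the line of equality and dotted lines at a 2-fold difference. Genes above 10 FPKM in both genotypes lie along the line of equality, and MX1, TLR3, IFITM2, OAS2, OAS1 and IFI44 lie outside the dotted lines.

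HELLS itself was first examined in each library. Its counts were 1444, 1488 and 3671 across HAP1 and 1410, 1375 and 2802 across HELLS KO libraries, in libraries of 13641237 to 24400187 total counts. The log2 fold change was -0.24 (SE 0.18) with an adjusted p of 1.0 in edgeR's test, so transcript abundance did not separate the genotypes. A count over the whole gene cannot show an insertion of 1 base, so the genotype labels were not checked by it. Libraries of replicate 3 were the deepest of each genotype.

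The RNA sensors came out as follows. RIGI, the gene of RIG-I, had counts of 328, 280 and 890 in parental HAP1 against 336, 391 and 907 in HELLS KO. The ranges overlap, and the log2 fold change was 0.12 (SE 0.28). RIGI shares 46% of its 31-base transcript words with other genes, mainly ENSG00000288684, which overlaps it on the same strand, so its level is uncertain. IFIH1, the gene of MDA5, had 86, 76 and 131 counts across HAP1 and 101, 147 and 248 across HELLS KO libraries, or 5.68 ± 0.321 and 9.14 ± 1.90 CPM (counts scaled to library size; SD, n = 3). All HELLS KO libraries were above all HAP1 libraries in CPM. The log2 fold change of IFIH1 was 0.69 (SE 0.23), with an adjusted p of 0.41 in edgeR's test and 0.16 with the block, and it was not called.

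DHX58, the gene of the regulatory helicase LGP2, was low, with 15, 17 and 30 counts in parental HAP1 against 22, 22 and 29 in HELLS KO. MAVS, the mitochondrial adaptor, had 3611, 3382 and 6008 counts across HAP1 and 3530, 3798 and 6036 across HELLS KO libraries. Its log2 fold change was 0.01 (SE 0.09; 95% interval -0.21 to 0.23), the narrowest interval among the sensors. TLR3, the endosomal receptor for double-stranded RNA, had 2, 4 and 7 counts against 8, 10 and 18. These ranges do not overlap, yet without the filter edgeR's quasi-likelihood test gave a log2 fold change of 1.41 (SE 0.69) and an adjusted p of 0.91, so at this depth no difference was established.

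Interferon itself was not detected. IFNB1, the gene of interferon beta, had 0, 0 and 2 counts in HAP1 and 0 in every HELLS KO library. A further 21 genes of interferon ligands were undetected as well, and 18 of them had no count in any library. Such counts bound the abundance of the transcript only, for counting error alone.

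The receptor and its signalling factors were expressed in both genotypes, and none was called. IFNAR1 had 1129, 969 and 2690 counts in parental HAP1 against 1255, 1333 and 2776 in HELLS KO, and IFNAR2 had 315, 286 and 646 against 287, 379 and 681. Their log2 fold changes were 0.16 (SE 0.20) and 0.09 (SE 0.20). STAT2, the signal transducer of the type I pathway, had 1215, 1147 and 2048 counts against 1084, 1201 and 2214. Its DNA-binding partner IRF9 had 53, 55 and 198 counts against 89, 81 and 146. Neither pair separated, with log2 fold changes of -0.03 (SE 0.12) for STAT2 and 0.14 (SE 0.34) for IRF9.

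IRF7, the factor that amplifies interferon production, had 313, 302 and 216 counts across HAP1 and 309, 249 and 211 across HELLS KO libraries, giving a log2 fold change of -0.16 (SE 0.43). IRF1, which activates many of the same promoters, had 396, 390 and 757 counts against 530, 454 and 880. In CPM, the HELLS KO libraries of IRF1 lay above those of HAP1, with a log2 fold change of 0.25 (SE 0.14) and an adjusted p of 1.0 in edgeR's test. USP18, the ISG15 protease and brake on the receptor, was at 22.1 FPKM in HAP1 and 20.4 in HELLS KO. No gene of this group was called with or without the block, and its median log2 fold change was 0.09.

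MX1 was the target that was called. It encodes MxA, a dynamin-like GTPase that blocks influenza and other RNA viruses, and lies at chr21:41420020-41470071 (GRCh38, plus strand). MX1 had 4, 1 and 10 counts in parental HAP1 against 40, 42 and 103 in HELLS KO. Every HELLS KO library was above every HAP1 library, although the HAP1 libraries held almost no reads of it. Levels were 0.257 ± 0.173 CPM and 3.31 ± 0.806 CPM (SD, n = 3). The log2 fold change of MX1 was 3.56 (SE 0.52; 95% interval 2.34 to 4.79), or 11.8-fold, with an adjusted p of 0.014 in edgeR's test, 0.0018 with the block and 4.7e-07 in DESeq2.

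The fold change of MX1 rests on 15 HAP1 counts in all. With any single library omitted it ranged from 3.19 to 4.16 on the log2 scale, and the adjusted p passed 0.05 without HAP1 replicate 1 (0.068), without HELLS KO replicate 1 (0.054) and without HELLS KO replicate 2 (0.075). Within replicates 1 and 2, which carry no batch label, it was 3.91 with an adjusted p of 0.028 in edgeR's test. TMPRSS2 and ENSG00000228318, annotated over MX1 on the opposite strand, had 0 counts in every library. No gene within 100 kb of MX1 passed the count filter, so no neighbour could be compared.

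MX2, the paralog of MX1 that acts on retroviruses, stayed at the edge of detection with 0, 2 and 2 counts against 4, 0 and 2. RSAD2, the gene of viperin, had 3, 2 and 5 counts against 8, 0 and 7. Neither had enough counts for the test.

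**Figure D3:**
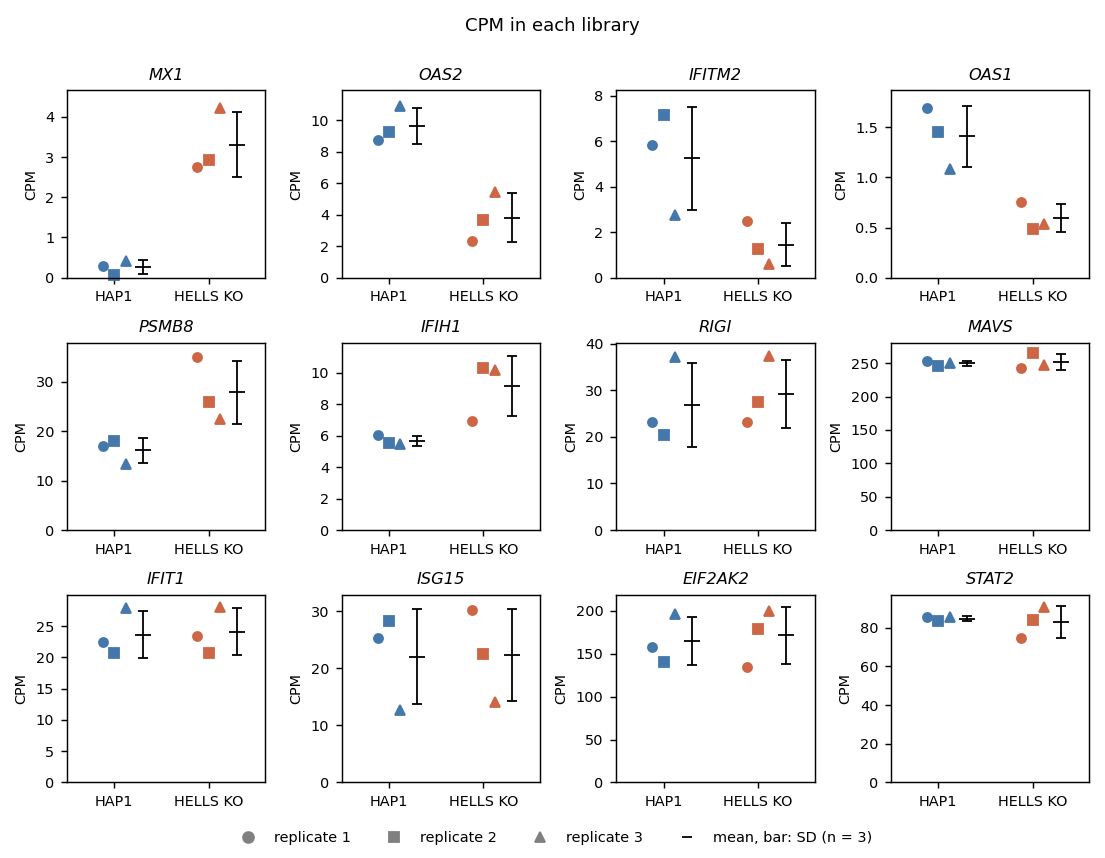
CPM of 12 genes in each library, with circles, squares and triangles for replicates 1, 2 and 3, and a bar for mean ± SD over 3 libraries of each genotype. HELLS KO lies above HAP1 in all libraries for MX1, PSMB8 and IFIH1 and below it for OAS2, IFITM2 and OAS1, while the points of RIGI, MAVS, IFIT1, ISG15, EIF2AK2 and STAT2 overlap.

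Genes of the 2′-5′ oligoadenylate synthetase family, which activate RNase L when they bind double-stranded RNA, lie side by side on chromosome 12 and gave fold changes of both signs. OAS2 (chr12:112978395-113011723) had 124, 127 and 261 counts across HAP1 and 34, 52 and 133 across HELLS KO libraries, or 9.61 ± 1.13 and 3.81 ± 1.57 CPM (SD, n = 3). All HELLS KO libraries lay below all HAP1 libraries in CPM. The log2 fold change of OAS2 was -1.32 (SE 0.33). Its adjusted p in edgeR's test was 0.14, with 0.0099 under the block, 0.0061 in DESeq2 and 0.043 within replicates 1 and 2.

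OAS1 (chr12:112905856-112933219) had 24, 20 and 26 counts in parental HAP1 against 11, 7 and 13 in HELLS KO. These did not overlap either, with a log2 fold change of -1.23 (SE 0.39) and an adjusted p of 0.34 in edgeR's test and 0.18 with the block. OAS3, between OAS1 and OAS2, had 543, 481 and 1258 counts against 598, 710 and 1515. Its log2 fold change of 0.28 (SE 0.22) had the opposite sign, with overlapping libraries. The difference between the OAS genes was not tested. OASL, a catalytically inactive relative, had 4, 0 and 6 counts in HAP1 and none in HELLS KO.

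EIF2AK2, the gene of the kinase PKR that stops translation on binding double-stranded RNA, had 2253, 1934 and 4711 counts across HAP1 and 1970, 2555 and 4881 across HELLS KO libraries. ADAR, which edits adenosines in double-stranded RNA and so hides it from the sensors, had 5049, 4653 and 8675 counts against 4071, 5471 and 8619. The libraries of both genes overlapped, with log2 fold changes of 0.05 (95% interval -0.38 to 0.49) and -0.05 (95% interval -0.37 to 0.26).

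The IFITM genes, small membrane proteins that block viral fusion, share much sequence. IFITM2 (chr11:303655-309397) had 83, 98 and 66 counts in parental HAP1 against 36, 18 and 15 in HELLS KO, or 5.24 ± 2.25 and 1.45 ± 0.944 CPM (SD, n = 3). Its libraries did not overlap in CPM, and replicate 3 was the lowest of each genotype. The log2 fold change was -1.87 (SE 0.57) with an adjusted p of 0.31 in edgeR's test, 0.011 with the block and 0.02 in DESeq2. Within replicates 1 and 2 it was -1.81 with an adjusted p of 0.069. With any single library omitted it ranged from -2.51 (without HELLS KO replicate 1) to -1.48 (without HELLS KO replicate 3), and the adjusted p from 0.095 to 0.9.

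IFITM3 had 17, 24 and 12 counts against 23, 20 and 15, with a log2 fold change of 0.07 (SE 0.58), and IFITM1 had a log2 fold change of -0.23 (SE 0.51). Of the 31-base words in IFITM2 transcripts, 30.1% also occur in transcripts of other genes, mainly IFITM3 and IFITM1, and for these the share was 41.8% and 44.5%. Reads were filtered on mapping quality, so the IFITM values hold only reads that could be placed and are uncertain to that extent. The median share over the 54 genes was 7.28%, and none exceeded 50%.

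IFIT1 and ISG15, classical targets of the pathway, gave differences smaller than their standard errors. IFIT1, which binds viral RNA caps, had 319, 284 and 666 counts across HAP1 and 341, 296 and 684 across HELLS KO libraries, giving a log2 fold change of 0.03 (SE 0.19; 95% interval -0.42 to 0.47). ISG15, the ubiquitin-like modifier, had 360, 387 and 303 counts against 439, 320 and 344, with a log2 fold change of 0.01 (SE 0.37; 95% interval -0.86 to 0.88). Replicate 3 of ISG15 was the lowest in CPM in both genotypes. None of the 7 tested IFIT and IFI genes was called by edgeR or had an unadjusted p under 0.05, and their log2 fold changes ran from -0.59 for IFIT2 to 0.23 for IFI35. IFI44L had no count in any library, and IFI44 had 2, 2 and 13 counts against 0, 0 and 6.

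In the conjugation group, 6 of 7 genes were above 0 and none was called. DTX3L, an E3 ligase that pairs with PARP9, had the largest value, a log2 fold change of 0.53 (SE 0.24) with an adjusted p of 0.85 in edgeR's test. PARP9, transcribed from the same promoter region in the other direction, was at 0.25 (SE 0.17) on the same scale. HERC5, the ligase that attaches ISG15, was at -0.41 (SE 0.23).

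In antigen presentation, PSMB8 was the gene that stood out. It encodes an inducible catalytic subunit of the immunoproteasome, at chr6:32840717-32844679 on the minus strand. PSMB8 had 243, 248 and 318 counts in parental HAP1 against 509, 372 and 547 in HELLS KO, or 16.1 ± 2.53 and 27.8 ± 6.45 CPM (SD, n = 3). All HELLS KO libraries were above all HAP1 libraries. The log2 fold change of PSMB8 was 0.79 (SE 0.22) with an adjusted p of 0.24 in edgeR's test. With the block the adjusted p was 0.017, but the change stayed under 2-fold and was not a call.

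Neighbours of PSMB8 in the same gene cluster were closer to 0. PSMB9, a second immunoproteasome subunit, was at 0.06 (SE 0.37), and TAP1, a subunit of the peptide transporter, was at 0.04 (SE 0.13), both as log2 fold change. B2M, the invariant light chain of class I molecules, had 912, 959 and 1266 counts across HAP1 and 989, 968 and 1255 across HELLS KO libraries. HLA-B, a heavy chain, had 972, 990 and 1124 counts against 1075, 997 and 1177. Their log2 fold changes were 0.00 (SE 0.17) and 0.04 (SE 0.23). HLA-B shares 48.9% of its 31-base words with other genes, so its level is uncertain.

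The 21 tested genes that are not given here with their counts in each library had log2 fold changes from -0.59 to 0.53, with none called. SP110, a nuclear body protein, had 21, 14 and 53 counts in parental HAP1 against 40, 32 and 80 in HELLS KO. Its libraries did not overlap in CPM, and its log2 fold change was 0.80 (SE 0.37) with an adjusted p of 0.88 in edgeR's test.

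Replicate 3 departed from the other replicates alike in both genotypes for many of these genes. Taking the log2 ratio of CPM in replicate 3 to the mean of replicates 1 and 2, 41 of the 45 genes had the same sign in HAP1 and HELLS KO, as 84.4% of all tested genes did. The ratio ran from -1.56 to 1.24 in HAP1 and from -1.60 to 0.87 in HELLS KO. In 25 genes it was larger than the difference between the genotypes in each of them. ISG15, IRF7 and the 3 IFITM genes were low in replicate 3, and RIGI, IFIT1, EIF2AK2 and OAS3 were high.

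**Figure D4:**
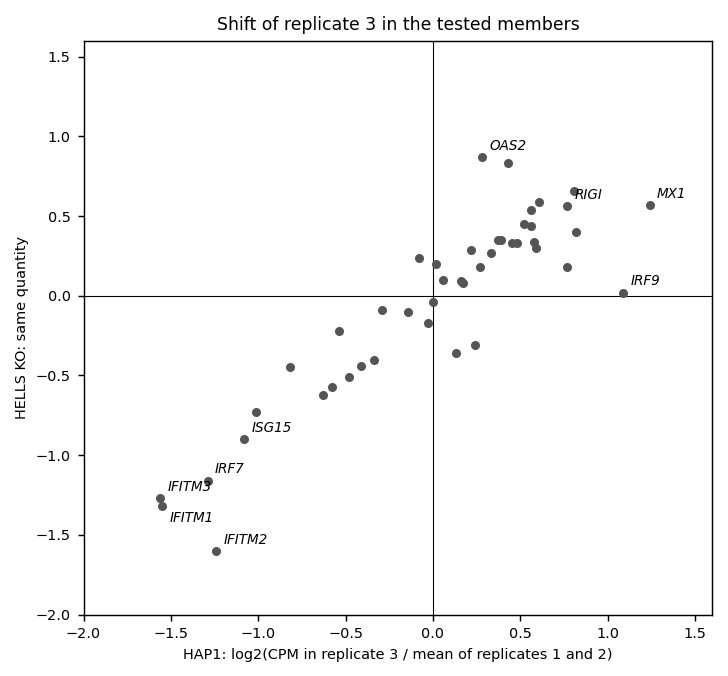
Each point is 1 of the 45 tested genes, with the log2 ratio of CPM in replicate 3 to the mean of replicates 1 and 2 in HAP1 on the x axis and in HELLS KO on the y axis. Of the points, 41 lie in the lower left or the upper right, with IFITM1, IFITM2, IFITM3 and IRF7 lowest in both genotypes.

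Further genes of the pathway were examined as lists. Of 147 such genes, 108 were tested, and edgeR called none in either direction. At an unadjusted p under 0.05 there were 4 of the 108, a smaller share than the 6.59% of all tested genes. With the block as well as in DESeq2 1 was called lower, PTPN6, a phosphatase that damps cytokine signalling, against 1.49% of all tested genes with the block and 0.961% in DESeq2. With the block, 10 genes had an unadjusted p under 0.05, against 11.6% of all tested genes. PTPN6 had a log2 fold change of -1.37 (SE 0.35), with an adjusted p of 0.17 in edgeR's test and 0.025 with the block. The median log2 fold change of the 108 genes was 0.00. All 26 adaptors and kinases of RNA sensing were tested, and the kinase TBK1 and the factor IRF3 had log2 fold changes of 0.05 (SE 0.28) and -0.00 (SE 0.18). In receptor signalling, JAK1 was at 0.21 (SE 0.20) and TYK2 at 0.04 (SE 0.17). Of 14 genes named for endogenous retroviruses, 8 were tested and none was called by edgeR, with log2 fold changes from -0.27 to 0.44 and none at an unadjusted p under 0.05. These named genes are single loci, and transcripts of repeats at large were not measured.

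Marker lists were read to check the labelled origin of the cells. Of 12 myeloid markers, 6 were undetected, and their summed level was 0.544 to 0.921 FPKM in HAP1 and 0.326 to 0.851 in HELLS KO, so the defining markers of the labelled leukemia lineage were largely absent. Among plasmacytoid dendritic markers, a cell type that makes much interferon, 4 of 7 were undetected. IL3RA was at 2.65 FPKM in HAP1 and 2.69 in HELLS KO, SPIB at 0.703 and 0.695, and the list summed to 3.26 to 3.41 FPKM in HAP1 and 2.74 to 4.46 in HELLS KO. Of 8 lymphoid markers 4 were undetected, and the list summed to 1.27 to 2.6 FPKM in HAP1 and 1.29 to 1.68 in HELLS KO. Of 8 fibroblast and mesenchymal markers 2 were undetected, and VIM was the highest, at 13.6 FPKM in HAP1 and 13.9 in HELLS KO. That list summed to 16.8 to 23 FPKM in HAP1 and 16.5 to 20.1 in HELLS KO. Of 6 epithelial markers, edgeR called EPCAM and KRT8 lower in the knockout, where 0.720% of all tested genes were called lower. Their log2 fold changes were -4.88 and -2.61. KRT18 (-0.19), CLDN4 (-0.86) and KRT19 (0.59) were not called, CDH1 was not tested, and libraries of all 4 overlapped between the genotypes. The summed level of the list was 26.0 to 37.1 FPKM in HAP1 and 13.8 to 19.1 FPKM in HELLS KO. None of the 6 was at 0 in all libraries, and their part in the differences of MX1, OAS2 and IFITM2 was not tested.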

How the data were processed

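RNA was measured by paired-end RNA-seq in 3 HAP1 and 3 HELLS KO libraries made with a directional kit. The authors aligned reads with STAR 2.7.3a to GRCh38, kept reads that were not duplicates with mapping quality of at least 20, and deposited featureCounts 2.0.6 counts per gene. The annotation release and the strand setting are not given in the sources used here, and 30 of the 54 genes overlap an annotated gene on the opposite strand. The FPKM values, also made by the authors, cover 24956 genes and could be recomputed from the deposited counts.

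The members and lists were chosen with earlier results of these data known. Genes given with values in every library were the called members and those of at least 2-fold whose libraries did not overlap. A list of sensors, signalling factors and classical targets completed the rule. PSMB8, MX2, RSAD2, OASL, IFI44 and IFI44L lie outside that rule and were given as well. SP110 was added after its values were seen. A further pathway gene that the rule lists by symbol is not reported here. Of the identifiers, 56321 matched GENCODE release 44. Counts were filtered with filterByExpr, scaled by TMM and tested with edgeR 4.0.16 in R 4.3.3, and CPM were computed on TMM-scaled totals. On simulated counts of this comparison with 200 genes changed by 2 on the log2 scale, the test recovered 200 and made 8 false calls among 17819 genes. The changed genes were drawn from well-counted genes only, with the same dispersion for every gene and no shift of replicate 3. That recovery therefore does not carry over to low-count genes or to the spread between the real replicates. Depth was 13641237 to 24400187 counts per library. Same-numbered libraries of the genotypes deviated together, with correlations of 0.416, 0.197 and 0.778 for replicates 1, 2 and 3. HAP1 replicate 2 with HELLS KO replicate 1 (0.591) and HAP1 replicate 1 with HELLS KO replicate 2 (0.33) both exceeded the value for replicate 2, so replicate 3 stood apart while replicates 1 and 2 were not separated by number. The replicate number was used as a block in an alternative fit. Other alternatives were DESeq2 1.42.0, upper-quartile scaling, no filter, at least 10 counts in every library, a batch term, replicates 1 and 2 only, each library left out, and limma 3.58.1 on log2(FPKM + 1) and log2(FPKM + 0.1).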

Additional observations from a re-analysis of the deposited data

How the results depend on the processing

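With the replicate block, which pairs libraries by number, 363 genes were called higher and 267 lower among all genes, 2 interferon and RNA-sensing genes were called lower and 1 of the other pathway genes was called lower. A batch term gave 285 lower among all genes, 2 of the interferon and RNA-sensing genes and 2 of the other pathway genes. DESeq2 gave 426 higher and 244 lower, with 2 and 1 lower in those lists. No filter gave 415 and 200. A minimum of 10 counts in every library gave 29 and 48 and removed MX1, leaving 0 called higher. Limma on log2(FPKM + 1) gave 146 and 52, with 0 higher among the interferon and RNA-sensing genes, MX1 then being at 0.42 with an adjusted p of 0.055. Replicates 1 and 2 alone gave 219 lower among all genes and 1 among the interferon and RNA-sensing genes. Leaving out each library in turn gave 112 to 273 higher and 40 to 176 lower among all genes, 0 to 1 higher and 0 to 1 lower among the interferon and RNA-sensing genes, and 0 to 1 lower among the other pathway genes; OAS2 was called without HELLS KO replicate 3 (adjusted p 0.049). The cause was not tested beyond the smaller number of genes or libraries. Among 46 genes followed singly, 60 of 688 values changed sign, all of genes within 1 SE of 0, and MX1 kept its direction. At 13641237 to 24400187 counts per library, genes such as IFNB1 and CXCL10 could not be compared.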

Other observations

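Among the further interferon-stimulated genes, a few with wide separation were chosen after their values were seen. PARP12, an interferon-induced mono-ADP-ribosyltransferase, had counts of 419, 379 and 525 in HAP1 against 662, 569 and 1116 in the knockout, with a log2 fold change of 0.73 (SE 0.16) and an adjusted p of 0.093 in edgeR's quasi-likelihood test and 0.015 with the replicate block. DDX60L, a helicase-like gene, had 63, 74 and 179 counts against 121, 133 and 345, with a log2 fold change of 0.88 (SE 0.30) and adjusted p of 0.43 and 0.022 in the same 2 fits of edgeR. Both were higher in every HELLS KO library in CPM, and both stayed under 2-fold. IDO1, the tryptophan-degrading enzyme induced by interferon gamma, had 22, 25 and 47 counts against 12, 8 and 15, with a log2 fold change of -1.41 (SE 0.35) and an adjusted p of 0.14 in edgeR's test. SAMD9, an interferon-induced antiviral gene, had 4, 2 and 8 counts against 6, 12 and 55, too few for the filter, and without it edgeR gave a log2 fold change of 2.18 (SE 0.69) and an adjusted p of 0.21.

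Genes near OAS2, IFITM2 and PSMB8 were not called. Within 100 kb, 4 tested genes lie near OAS2, with log2 fold changes from -1.23 (OAS1) to 0.32, 13 near IFITM2, from -0.81 to 0.26, and 4 near PSMB8, from -0.05 to 0.52. None was called by edgeR's test with or without the block.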
